A study of Mus musculus with 38 samples.

Results

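Most of the genes described here encode proteins of the cytosolic ribosome. They were chosen by symbol from the annotation of the arrays: a symbol that begins with Rpl or Rps and a digit, or is Rplp0, Rplp1, Rplp2 or Rpsa, without the Rps6k kinases and without pseudogenes. The rule found 20 of the 9890 genes tested, on 25 probes. Symbols were used only for probes of the deposited normalized table, 16247 of 45272, so the results cover these genes and not the whole family. For 5 of the genes there were 2 probes, and the brighter one stood for the gene. Of the 20 genes, 16 encode ribosomal proteins: Rplp0 and Rplp2 of the stalk, Rpl4, Rpl10a, Rpl26, Rpl27, Rpl38 and Rpl41 of the large subunit, and Rps3, Rps3a1, Rps4x, Rps7, Rps9, Rps10, Rps19 and Rps29 of the small subunit. The label holds for these 16. The symbols Rpl3l, Rpl7l1 and Rps27l belong to paralogs of ribosomal proteins, and Rps19bp1 encodes a protein that binds Rps19 and is not part of the ribosome.

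Total RNA of whole tissue from 8-week-old C57BL/6 mice was measured on 38 Illumina bead arrays in 7 groups. Control tissue, whose kind the labels do not name, had 7 arrays. The other groups were tumor microenvironment tissue taken 4 or 14 days after inoculation with B16 melanoma cells: the line B16-WT with 4 arrays at day 4 and 5 at day 14, B16-shTGFb with 6 and 5, and B16-shVEGF with 5 and 6. As their names read, shTGFb and shVEGF carry short hairpin RNAs that target TGF-beta and VEGF, growth factors that tumor cells release. The groups include no B16 line with a control hairpin, so a difference between a hairpin line and B16-WT also holds whatever else sets the lines apart. The labels do not state whether each array stands for a different mouse, so the p-values reflect the spread among these samples, which may be technical.

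Every cell makes ribosomes, and their proteins are among the most abundant products of growing cells. The mRNAs of most ribosomal proteins begin with a C followed by a run of pyrimidines, the terminal oligopyrimidine (TOP) tract, through which the kinase mTOR and the RNA-binding protein Larp1 adjust their translation. Array intensities measure the mRNA and not its translation. Many ribosomal protein genes have processed pseudogenes of nearly the same sequence, and a probe cannot tell the 2 apart.

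Start-site windows are shown because the TOP tract and an ETS-factor motif are the features that ribosomal protein genes are known to share. They come from RefSeq (GRCm38.p6), which held 24 windows for 19 of the 20 genes. Each window runs from 30 bases before the annotated start to 20 bases from it, on the strand of the gene. The first set shows in capitals a run of at least 6 pyrimidines that begins with C, in 3 ribosomal proteins and, for contrast, the window of a start of Rpl3l, which has no such run.
Rplp2, chr7:141447621-141447670, plus strand: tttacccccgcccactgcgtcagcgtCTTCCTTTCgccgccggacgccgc
Rpl38, chr11:114668550-114668599, plus strand: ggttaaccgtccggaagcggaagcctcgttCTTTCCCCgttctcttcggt
Rps10, chr17:27635225-27635274, minus strand: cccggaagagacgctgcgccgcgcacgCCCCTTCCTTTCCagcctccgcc
Rpl3l, chr17:24727796-24727845, plus strand: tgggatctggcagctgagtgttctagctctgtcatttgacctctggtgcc

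The run was found in 8 of the 18 windows of the ribosomal proteins proper (44.4%), in 1 of the 6 windows of the paralogs and the binding protein, and in 35.6% of all 32851 windows. A run of this length was thus common at starts in general. The run of Rpl38 begins at the annotated start itself (position 1), and those of Rplp2 and Rps10 begin at positions -4 and -3. The other runs counted in ribosomal proteins proper begin at -5 (Rps9), -9 (Rpl10a), -17 (Rpl4), -29 (Rps7) and 7 (Rps19). A run was counted wherever it lay in the window, so it need not be a TOP tract. The second set shows in capitals the letters CCGGAAG, which hold the core of the binding motif of the ETS factors.
Rpl26, chr11:68901536-68901585, plus strand: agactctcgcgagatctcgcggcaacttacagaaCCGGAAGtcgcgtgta
Rps3a1, chr3:86142649-86142698, minus strand: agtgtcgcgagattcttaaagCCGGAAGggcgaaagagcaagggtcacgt
Rps27l, chr9:66946056-66946105, plus strand: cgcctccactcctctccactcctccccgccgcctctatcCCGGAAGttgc

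Searched on both strands of the 300 bases that RefSeq's table gives for each start, these letters were in 7 of the 18 windows of the ribosomal proteins proper (38.9%), against 8.86% of all windows. The other holders among the 20 genes were Rpl38, Rpl41, Rplp2, Rps7 and Rps10. Rps27l was the holder outside the ribosomal proteins proper. A match is a description of the letters in the window and not of a bound site, and windows of one gene can overlap.

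On the arrays, 3 libraries of the B16-WT groups stood apart: day 4 array 4, and day 14 arrays 2 and 5. On these 3 arrays Dcn, the fibroblast proteoglycan decorin, was not detected. The mean level of 6 fibroblast genes was 4.78 to 5.07 on them and 9.65 to 12.75 on the other 35 arrays. The mean of 4 skeletal muscle genes was 4.76 to 5.09 against 9.03 to 14.14, and that of 5 macrophage genes 4.79 to 5.33 against 10.57 to 12.78. The mean of 6 pigment cell genes was 12.97 to 13.14 on the 3 arrays, inside the range of the others. All levels are background-corrected, quantile-normalized signals on the log2 scale unless a raw signal is named. The number of probes detected at a p under 0.05 was 16519 to 17669 on the 3 arrays and 17291 to 22897 on the others. Levels of different probes are not compared.

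The ribosomal proteins gave some of the brightest signals of the platform. A probe was taken as near saturation on an array where its raw signal reached 0.5 of the highest raw signal of any probe on that array, which lay between 23562 and 30681. By this measure 14 of the 20 genes (70%) were near saturation on at least 1 array, against 2.5% of all genes tested. Rpl38, Rpl41, Rps4x and Rps29 were so on all 38 arrays, and they were 4 of only 8 genes of which this was true. The raw signal of Rps29, a small zinc-binding protein of the small subunit, ran from 19210 to 28847 and was on 1 array the highest of all probes. That of Rps4x, the X-linked form of Rps4, reached 99.1% of an array's highest signal. The 6 genes that never came near saturation were Rplp0, Rpl4, Rps3a1, Rpl3l, Rpl7l1 and Rps19bp1. Rplp0, Rpl4 and Rps3a1, the ribosomal proteins proper among them, had 1 probe each, with median raw signals of 566, 1762 and 1101. Whether these dimmer probes read their mRNA well was not tested.

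After quantile normalization, bright probes varied little from array to array. That step gives every array the same set of values, which can by itself narrow the spread of probes that hold the top ranks. How much of the small spread came from it was not tested. The SD within groups was 0.0931 log2 units for Rpl41, the shortest protein of the large subunit, 0.113 for Rpl38, 0.115 for Rps4x and 0.125 for Rps29. Among the 21 genes of all with a mean level of at least 14, of which 9 were ribosomal proteins proper, the median SD was 0.176. It was 0.389 for the 96 genes between 13 and 14, and 0.533 for the 3279 genes between 8 and 10. The members that never came near saturation had SDs of 0.326 (Rpl4), 0.341 (Rplp0), 0.470 (Rpl7l1), 0.577 (Rps3a1) and 0.771 (Rps19bp1). Each lay between the quartiles of all genes of its level, except that of Rplp0, which lay below them, and that of Rpl3l, which at 2.08 lay above. The narrowest ranges over the 38 arrays were those of Rpl38 (0.44), Rpl41 (0.48), Rps4x (0.49), Rpl10a (0.59) and Rps29 (0.59), and the widest those of Rpl3l (8.78), Rpl7l1 (3.08), Rps19bp1 (2.94), Rps3a1 (2.20) and Rpl4 (1.96).

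**Figure D1:**
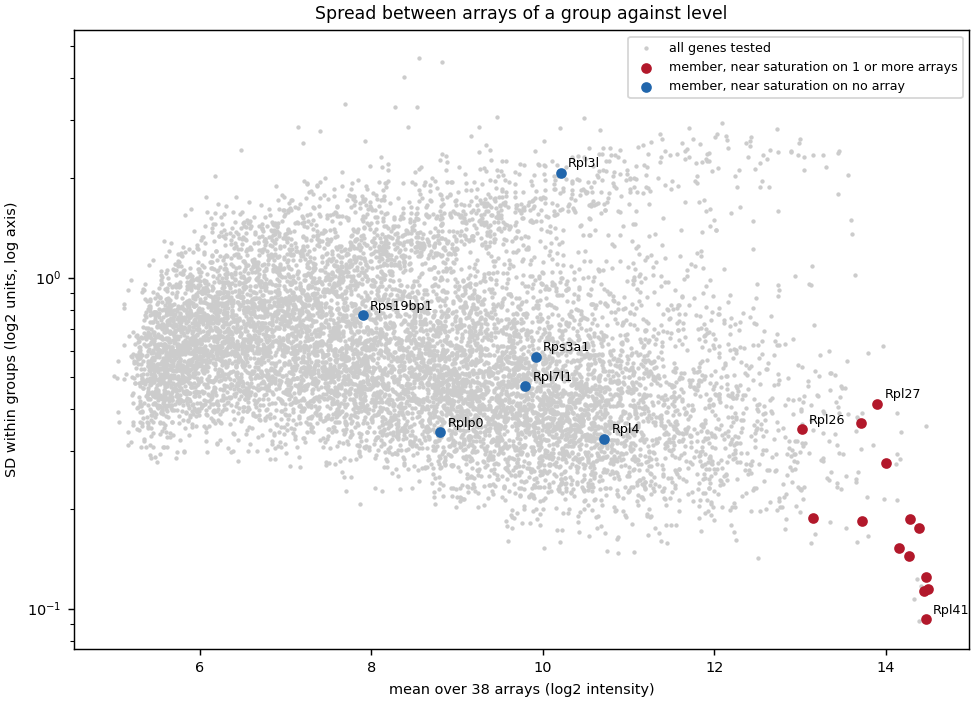
Each point is a gene, after quantile normalization. The x axis gives the mean log2 intensity over 38 arrays and the y axis, on a log scale, the SD within groups. Grey points are all 9890 genes tested, red points the 14 members near saturation on at least 1 array and blue points the 6 that never were. The red points fall toward the lower right, down to an SD of 0.0931 for Rpl41, while Rpl3l stands at 2.08.

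Genes with 2 probes showed how much the reading depended on the probe. Rpl38, a large subunit protein known from mouse mutants with skeletal defects, had a brighter probe with raw signals of 17992 to 28158 and a dimmer one with 384 to 2783. The brighter probe spread over 0.44 log2 units and the dimmer over 3.01, and over the 35 arrays with Dcn the 2 were unrelated (Pearson's r = -0.0438, permutation p = 0.801, Spearman's rho = -0.00364, permutation p = 0.984). Rps19, the small subunit protein mutated in many cases of human Diamond-Blackfan anemia, had a bright probe at 11670 to 27337 and a dim one at 129 to 290, and r was 0.259 (rho = 0.253). Neither relation passed after adjustment over the 6 relations computed (adjusted permutation p = 0.801 and 0.159).

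The 2 probes of Rps9, a small subunit protein with raw signals of 11427 to 26019 on the brighter probe and 5921 to 19505 on the dimmer, moved together (r = 0.683, adjusted permutation p = 3e-05; rho = 0.616, adjusted p = 0.00039). Without the 2 arrays farthest from the median, r was 0.777. For Rps3, which sits at the entry of the mRNA channel of the small subunit, r was 0.575 (adjusted permutation p = 0.00121). It fell to 0.314 without the 2 farthest arrays, and rho was 0.291 (adjusted p = 0.134), so that relation rested on those arrays. The probes of Rpl7l1 ran in opposite directions on these 35 arrays (r = -0.609, adjusted permutation p = 0.00024; rho = -0.478, adjusted p = 0.00798). The dimmer probe of Rpl7l1 gave raw signals of only 139 to 217, close to the array medians of 105 to 155, and the brighter one 383 to 1977. On the 3 arrays without detected Dcn both of its probes were at their highest.

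**Figure D2:**
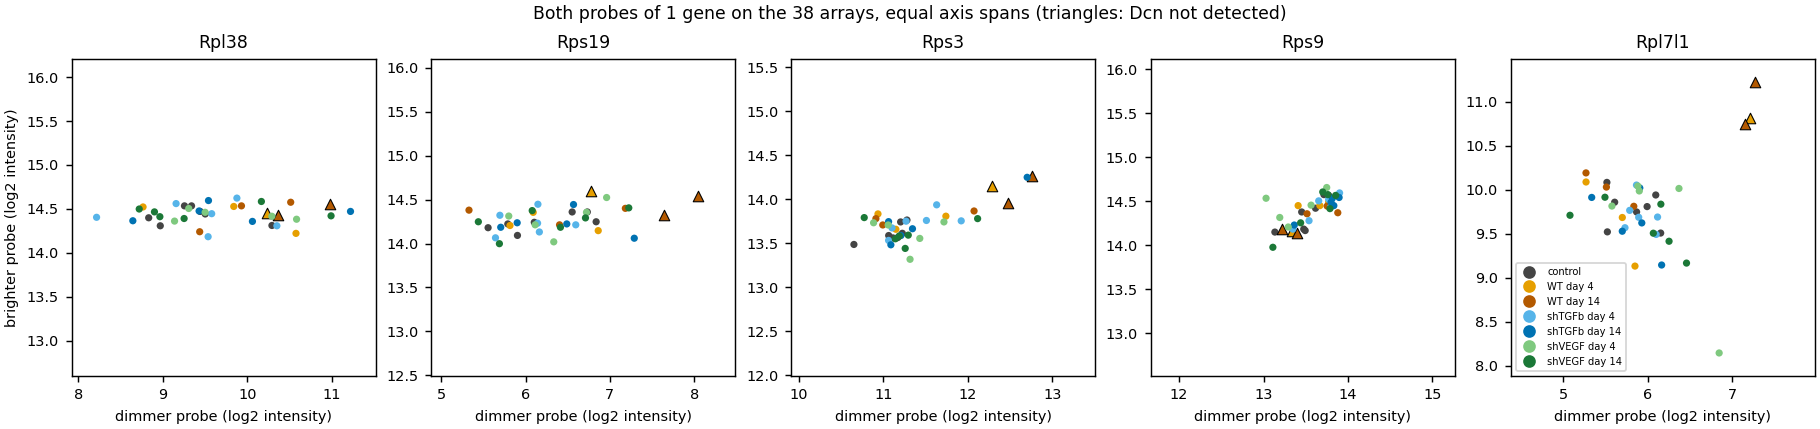
For each of the 5 genes with 2 probes, the log2 intensity of the dimmer probe (x axis) is set against that of the brighter probe (y axis) on the 38 arrays. All axes span the same number of log2 units, colors give the group and triangles are the 3 arrays without detected Dcn. The points of Rpl38 and Rps19 lie nearly flat, those of Rps9 rise together, and the 3 triangles of Rpl7l1 lie apart at the upper right.

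No member was called different between the 7 groups. The limma F test over the 7 group means called 0 of the 20 genes at a Benjamini-Hochberg adjusted p under 0.05 (0% of all 9890 genes were called), and 0 of the 20 passed at an unadjusted p under 0.05, where 6.41% of all genes did. The smallest unadjusted F p among the members was 0.0727, for Rpl3l, with an adjusted p of 0.637. Group labels held a median of 14.7% of the variance between arrays over the 20 genes and 18% over all genes. The share was lowest for Rpl38 (2.89%) and highest for Rps3 (31%). With 7 group means over 38 arrays, some share arises even where no group differs, and its size was not estimated. The shares by themselves therefore do not show a difference between groups. Each of the 15 comparisons between groups also called 0 genes of 9890 and so 0 members.

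**Figure D3:**
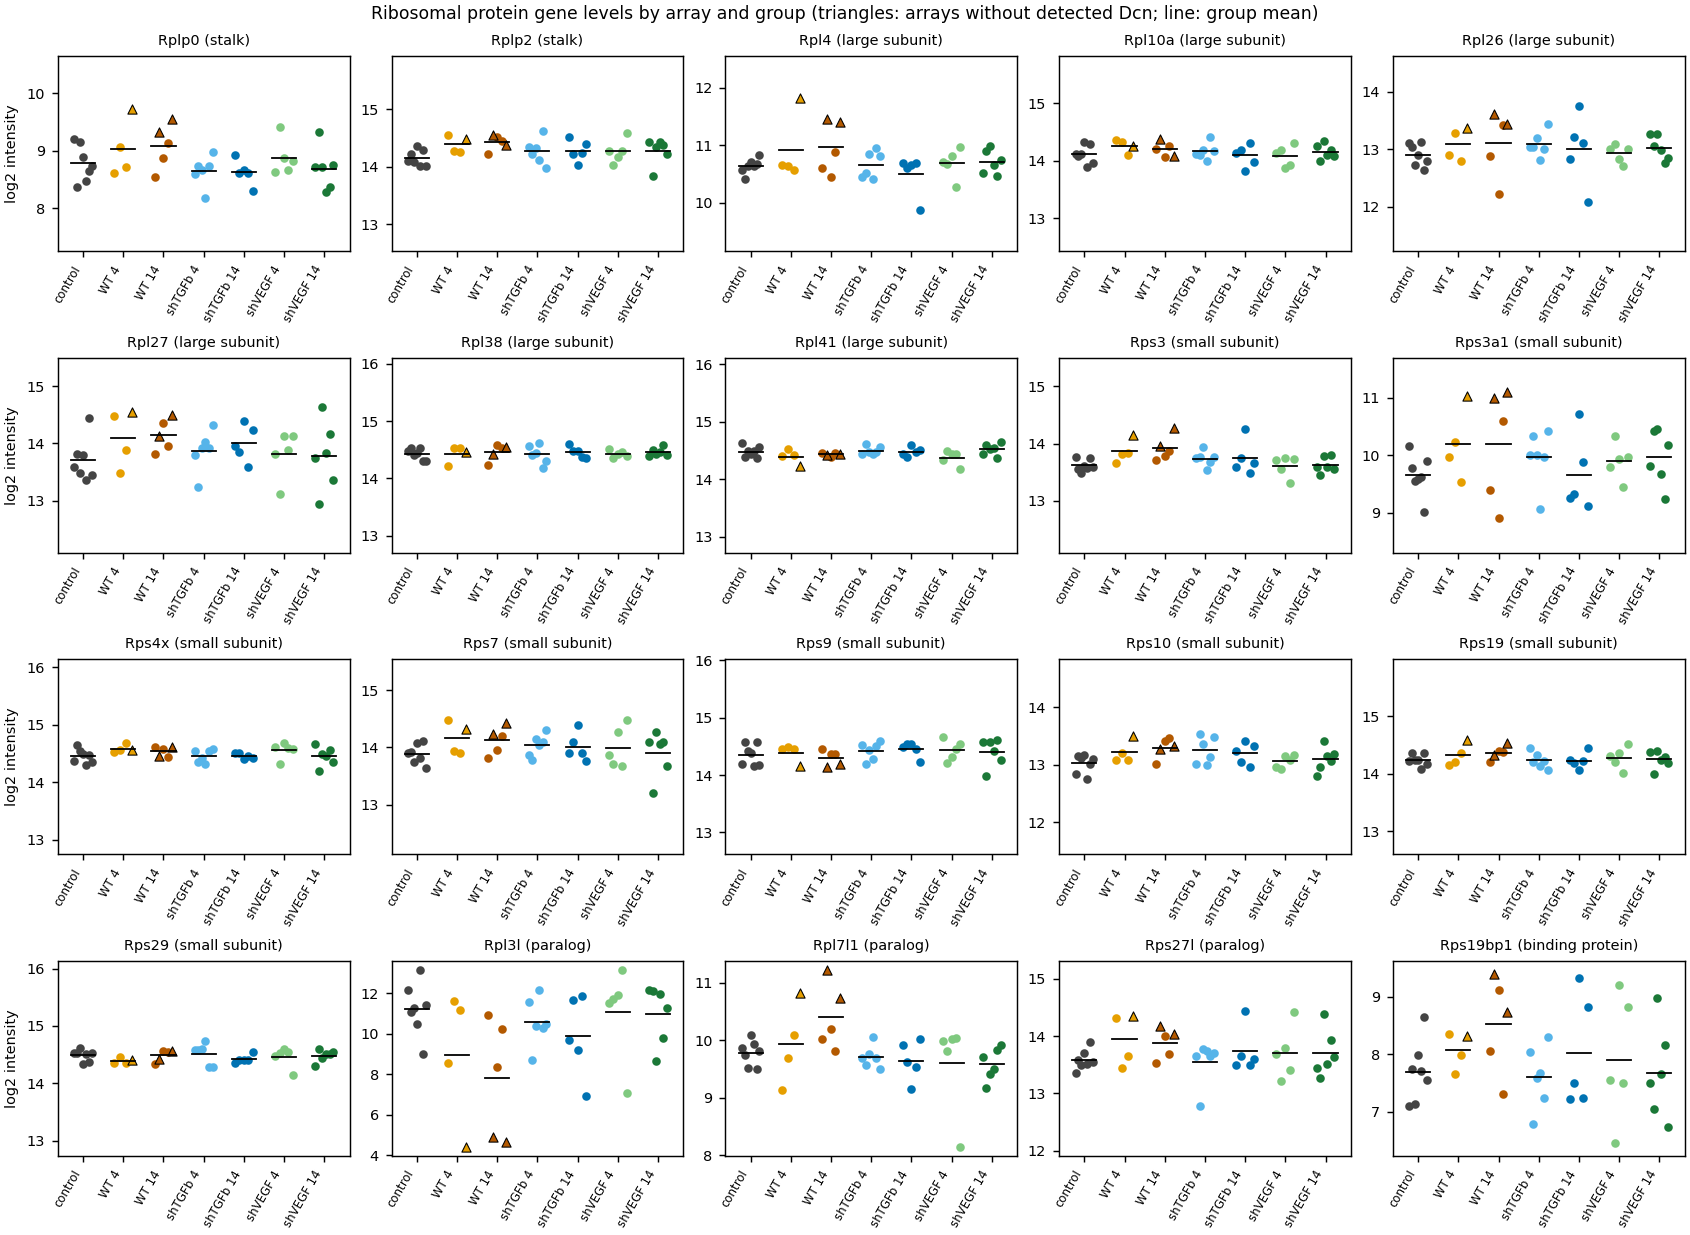
Log2 intensity of each of the 20 genes on each array, by group; points are arrays, triangles the 3 arrays without detected Dcn, and lines group means. Every panel but that of Rpl3l spans the same number of log2 units. Groups overlap in every panel; the triangles lie high for Rpl4, Rplp0, Rps3a1 and Rpl7l1 and at the bottom for Rpl3l.

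The stalk proteins bind the elongation factors that drive each step of translation. Rplp0, the anchor of the stalk, had a level of 9.20, 8.37, 9.15, 8.89, 8.47, 8.65 and 8.74 on the 7 control arrays. On the B16-WT arrays it was 8.61, 9.07, 8.71 and 9.72 at day 4 and 8.55, 9.32, 8.87, 9.14 and 9.55 at day 14. The 9.72, 9.32 and 9.55 belong to the arrays without detected Dcn and lie above every control array, while the other 6 lie inside the control range. The group means were 8.78 ± 0.32 (SD, n = 7) for control, 9.03 ± 0.50 (n = 4) for WT day 4 and 9.09 ± 0.39 (n = 5) for WT day 14. The hairpin groups had means of 8.62 to 8.88. Rplp2, which forms the flexible part of the stalk with Rplp1, had group means from 14.16 ± 0.14 (SD, n = 7) in control to 14.43 ± 0.13 (n = 5) at WT day 14, and its probe was near saturation on 37 of 38 arrays.

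Among the large subunit proteins, Rpl4, which lines the exit tunnel, showed the 3 arrays most plainly. It was at 10.65, 10.64, 10.57 and 11.83 on the WT day 4 arrays and at 10.60, 11.46, 10.45, 10.89 and 11.41 on those of day 14. The values 11.83, 11.46 and 11.41, from the 3 arrays without detected Dcn, were the highest of all 38. Control arrays ran from 10.41 to 10.82, which holds 5 of the other 6 WT arrays, and the hairpin groups from 9.87 to 10.98. Rpl27, another large subunit protein, ran from 13.37 to 14.45 in control and from 13.82 to 14.50 at WT day 14. Rpl10a had group means of 14.08 to 14.26, Rpl26 of 12.91 to 13.12, Rpl38 of 14.42 to 14.47 and Rpl41 of 14.38 to 14.52. The groups of all these genes overlapped.

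In the small subunit, Rps3a1, a protein of the platform near the mRNA exit, was at 9.96, 10.24, 9.53 and 11.03 at WT day 4 and at 9.39, 10.996, 8.90, 10.60 and 11.10 at WT day 14. Its 3 highest values over all 38 arrays, 11.10, 11.03 and 10.996, came from the arrays without detected Dcn, and its other WT day 14 arrays spread from 8.90 to 10.60. Control arrays lay between 9.01 and 10.16. Rps3 was at 13.71, 13.96, 13.78, 13.87 and 14.27 at WT day 14 and at 13.49 to 13.77 in control. Rps10 was at 13.01, 13.27, 13.41, 13.46 and 13.33 at WT day 14 and at 12.75 to 13.17 in control, so 4 of the 5 WT day 14 arrays lay above all controls. Rps19 had group means of 14.23 to 14.37, Rps7 of 13.89 to 14.16, Rps9 of 14.30 to 14.45, Rps4x of 14.45 to 14.59 and Rps29 of 14.39 to 14.51.

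Against control, the fitted differences of the members at B16-WT were mostly above 0. At day 4, 17 of the 20 genes had a positive difference, where 54.6% of all genes did, with a median of 0.19 log2 units against 0.05 over all genes. At day 14 it was 16 of 20 (52.2% of all genes) with a median of 0.25 against 0.04. Among the 6639 genes detected on all 38 arrays, 66.6% were positive at day 4 and 63.1% at day 14, with medians of 0.14 and 0.15. The 19 members among these genes had medians of 0.20 and 0.27. Part of the shift was thus shared by well-detected genes. With the 3 arrays that lack Dcn left out, a choice made after seeing the data, the count was 13 of 20 at day 4 (52.5% of all genes) with a median of 0.11, and 15 of 20 at day 14 (45% of all genes) with a median of 0.08. The median of all genes was then 0.013 and -0.040. With each array centred on its median in place of quantile normalization, 19 of 20 were positive at both times, with medians of 0.36 and 0.64. That scaling also moved the median of all genes, to 0.11 and 0.16, and the share of all genes above 0 to 58.9% and 59.1%.

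At an unadjusted limma p under 0.05, 0 members passed at WT day 4 (1.98% of all genes) and 4 at WT day 14, where 25% of all genes passed. Of these 4, Rpl7l1 was higher by 0.62 ± 0.28 (SE; unadjusted p = 0.0315, adjusted p = 0.169), Rps3 by 0.30 ± 0.13 (adjusted p = 0.167) and Rps10 by 0.28 ± 0.13 (adjusted p = 0.193). The fourth, Rpl3l, had a difference of -3.42 ± 1.17 (adjusted p = 0.143). The share of 4 in 20 is below the 25% of all genes. It depended on the scaling: with median centring 17 of 20 passed unadjusted, where 25.2% of all genes did, and 0 were called. Leaving out the 3 arrays gave 0.23 for Rpl7l1, 0.17 for Rps3, 0.27 for Rps10 and -1.38 for Rpl3l, and 0 members passed at an unadjusted p under 0.05. Rps10 thus kept nearly all of its difference and the others lost a large part. The largest positive differences at day 14 otherwise were those of Rps19bp1 (0.83, and 0.47 without the 3 arrays) and Rps3a1 (0.54, and -0.03 without them). At day 4 they were those of Rps3a1 (0.53, and 0.25 without array 4), Rpl27 (0.39, and 0.24) and Rps19bp1 (0.39, and 0.31). Rpl41 had differences of -0.09 and -0.05 at the 2 times, Rps29 of -0.10 at day 4 and Rps9 of -0.05 at day 14. Rpl3l was at -2.30 ± 1.25 (SE) at day 4 and at -0.79 without array 4.

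**Figure D4:**
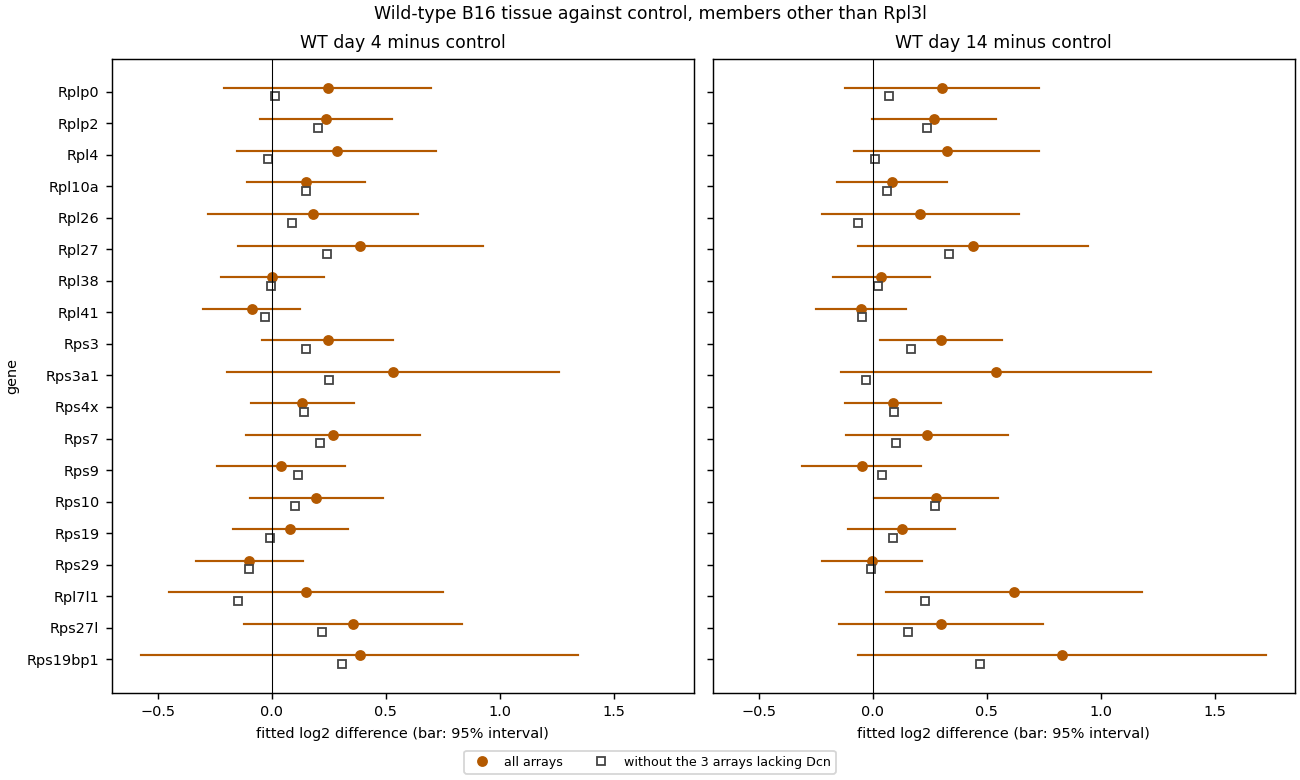
Fitted log2 differences of B16-WT day 4 (left) and day 14 (right) from control for the 19 members other than Rpl3l, with 95% intervals as bars; open squares leave out the 3 arrays without detected Dcn. Most filled points lie above 0, and the open squares of Rpl4, Rplp0 and Rps3a1 at day 14 lie at 0.01, 0.07 and -0.03.

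Over all arrays, the 6 genes never near saturation had a median difference of 0.43 from control at WT day 14, and the 14 near saturation on at least 1 array 0.17. The order turned once the 3 arrays were left out, with medians of 0.040 and 0.090. Of the 6, Rpl3l, Rpl7l1 and Rps19bp1 are not ribosomal proteins proper, and of the 14 only Rps27l is not. The sets thus differ in kind of gene as well as in saturation. By subunit, the large subunit and stalk had a median of 0.24 (7 of 8 positive) and the small subunit 0.18 (6 of 8). Without the 3 arrays the medians were 0.042 and 0.090 (6 of 8 each). Of all genes 52.2% were positive, and 45% without the 3 arrays. In a fit of single probes, the difference of Rps3 was 0.74 ± 0.30 (SE) on the dimmer probe against 0.30 ± 0.14 on the brighter, and 0.23 against 0.17 without the 3 arrays. That of Rpl38 was 0.87 ± 0.42 against 0.04 ± 0.11, and 0.58 against 0.021 without them. For Rps19, whose dimmer probe lay near the array medians, it was 0.71 ± 0.36 against 0.13 ± 0.12, and 0.094 against 0.088 without them. For Rpl7l1 the dimmer probe gave the smaller difference, 0.39 ± 0.31 against 0.62 ± 0.28, and the signs parted without the 3 arrays (-0.28 against 0.23). The probes of Rps9 were at 0.030 and -0.048, and at 0.19 and 0.042 without them. Over the 15 comparisons the dimmer probe had the larger absolute difference in 15 for Rpl38, 14 for Rps19, 13 for Rps3, 10 for Rps9 and 5 for Rpl7l1. The part that saturation has in these differences was not tested.

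The differences of the hairpin groups from control were small after quantile normalization and larger with another scaling. Positive differences from control were found for 13 of 20 members at shTGFb day 4 (45.2% of all genes), 13 at shTGFb day 14 (43.4%), 13 at shVEGF day 4 (53.9%) and 15 at shVEGF day 14 (48.5%). The medians were 0.02, 0.02, 0.04 and 0.04 log2 units. With median centring 16 (47.1% of all genes), 16 (51.8%), 18 (62.9%) and 17 (54.8%) were positive, with medians of 0.053, 0.22, 0.24 and 0.12, and the median of all genes at shVEGF day 4 was then 0.11. No member passed at an unadjusted p under 0.05 in these 4 comparisons, where 3%, 1.26%, 1.08% and 0.222% of all genes did. The largest differences other than that of Rpl3l were those of Rps19bp1 at shTGFb day 14 (0.33 ± 0.44, SE), of Rps3a1 at shTGFb day 4 (0.31 ± 0.32) and at shVEGF day 14 (0.31 ± 0.32), and of Rpl27 at shTGFb day 14 (0.30 ± 0.25). Rps10 was at 0.23 and Rpl26 at 0.18 at shTGFb day 4. The differences of Rpl3l were -0.64 ± 1.11 and -1.36 ± 1.17 in shTGFb and -0.15 ± 1.17 and -0.24 ± 1.11 in shVEGF, at day 4 and day 14. In the other direction Rplp0 was at -0.14 at shTGFb day 4 and -0.09 at shVEGF day 14, Rpl41 at -0.10 at shVEGF day 4, and at shTGFb day 14 Rplp0 was at -0.16 and Rpl7l1 at -0.14. In shVEGF, Rpl7l1 was at -0.18 and -0.19 at the 2 times.

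Between the lines at the same day, most members were lower in the hairpin groups than in B16-WT. These comparisons share the B16-WT arrays, with the 3 that lack Dcn, and so do not stand apart from one another or from those with control. Positive differences were found for 6 of 20 members at shTGFb day 4 (45.1% of all genes), 3 at shTGFb day 14 (45.6%), 3 at shVEGF day 4 (45.2%) and 3 at shVEGF day 14 (47.1%). The medians were -0.12, -0.13, -0.16 and -0.17. Among the 6639 genes detected on all 38 arrays, 33.8%, 33.5%, 38.5% and 35.7% were positive, with medians of -0.158, -0.167, -0.072 and -0.165. The 19 members among these genes had medians of -0.122, -0.140, -0.160 and -0.186. Much of the lower level was thus shared by well-detected genes. Leaving out the 3 arrays gave counts of 8 (45.6% of all genes), 8 (50.2%), 6 (49.5%) and 8 of 20 (55.6%), and medians of -0.018, -0.047, -0.049 and -0.061. At day 14 Rpl7l1 was at -0.76 ± 0.30 (SE) in shTGFb against WT (limma, adjusted p = 0.328) and at -0.81 ± 0.29 in shVEGF (adjusted p = 0.141). Rpl4 and Rplp0 were both at -0.46 ± 0.22 in shTGFb (adjusted p = 0.343 and 0.348), and Rps3 at -0.29 ± 0.14 in shVEGF (adjusted p = 0.177). Leaving out the 3 arrays, Rpl7l1 was at -0.37 in shTGFb and -0.42 in shVEGF, Rpl4 at -0.14, Rplp0 at -0.23 and Rps3 at -0.16.

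At an unadjusted p under 0.05 these made up 3 members of 20 for shTGFb day 14 (14.2% of all genes) and, with Rpl3l, 3 of 20 for shVEGF day 14 (25.7%), against 0 of 20 for both at day 4 (8.2% and 2.55%). With median centring 6 of 20 passed for shTGFb day 14 (13.5% of all genes) and 13 of 20 for shVEGF day 14 (24.8%), with 1 of 20 positive in both, and 0 were called. With the 3 arrays out, 0 members passed in any of the 4. Rps19bp1 was at -0.84 ± 0.46 in shVEGF against WT at day 14, and at -0.48 without the 3 arrays. Rps9 and Rpl41 were at 0.10 and 0.09 there, and at 0.0084 and 0.088 without them. At day 14 in shTGFb, Rps3a1 was at -0.54 (0.03 without the 3 arrays), Rps19bp1 at -0.50 (-0.14) and Rps9 at 0.15 (0.058). At day 4 in shTGFb, Rps19bp1 was at -0.47, Rps27l at -0.39 and Rplp0 at -0.38, and without WT array 4 at -0.39, -0.25 and -0.15. At day 4 in shVEGF, Rpl7l1 was at -0.33, Rps3a1 at -0.29 and Rpl27 at -0.28, and without WT array 4 at -0.035, -0.014 and -0.13. None of these differences was called.

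The comparison of day 14 with day 4 also depended on the scaling. Positive differences were found for 14 of 20 in B16-WT (45.2% of all genes), 8 in shTGFb (46.1%) and 10 in shVEGF (46.2%), with medians of 0.04, -0.020 and -0.0023. Leaving out the 3 arrays, it was 11 of 20 in B16-WT (41.1% of all genes). With median centring it was 19 of 20 in B16-WT (55.4% of all genes), 15 in shTGFb (51.8%) and 1 in shVEGF (39.6%), with medians of 0.32, 0.15 and -0.13. No member passed at an unadjusted p under 0.05 in any line, where 0.637%, 4.9% and 0.607% of all genes did. Rpl7l1 had the largest positive difference in B16-WT, 0.47 ± 0.32 (SE, adjusted p = 1), and 0.38 without the 3 arrays. Rps19bp1 was at 0.42 ± 0.46 in shTGFb and at -0.23 ± 0.46 in shVEGF. The test of whether the change over time differed between a hairpin line and B16-WT called 0 members, and 0 passed unadjusted (1.39% of all genes for shTGFb, 1.01% for shVEGF). Its estimate was positive for 6 of 20 with shTGFb (53.3% of all genes) and 8 with shVEGF (50.6%), and for 9 in both (53.8% and 53.4%) without the 3 arrays. With median centring it was positive for 2 (50.6% of all genes) and 1 (41%). In that test Rpl7l1 was at -0.53 ± 0.43 and -0.48 ± 0.43, and at -0.44 and -0.39 without the 3 arrays.

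Of the paralogs, Rpl7l1 is related to Rpl7, and its yeast counterpart acts in the assembly of the large subunit. It was at 9.86, 9.75, 9.52, 10.08, 9.94, 9.51 and 9.81 on the control arrays. At WT day 4 it was at 9.13, 9.69, 10.09 and 10.82, and at day 14 at 10.03, 11.23, 10.19, 9.81 and 10.75. The highest of all 38 were 11.23, 10.82 and 10.75, all on arrays without detected Dcn. The hairpin groups had means of 9.59 ± 0.28 (SD, n = 6) to 9.71 ± 0.19 (n = 6), with 1 array at 8.15, shVEGF day 4 array 5. The other 6 WT arrays ran from 9.13 to 10.19.

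Rps27l, a paralog of Rps27 known as a target of p53, had group means from 13.55 ± 0.38 (SD, n = 6) at shTGFb day 4 to 13.94 ± 0.46 (n = 4) at WT day 4, with control at 13.58 ± 0.17 (n = 7). Its difference from control was 0.36 ± 0.24 (SE) at WT day 4 (0.22 without the 3 arrays) and 0.30 ± 0.22 at WT day 14 (0.16). Rps19bp1, which binds Rps19 and the deacetylase Sirt1, had the largest SD after Rpl3l. At WT day 14 it was at 8.06, 9.40, 9.11, 7.31 and 8.73, against 7.10 to 8.64 in control, 6.79 to 9.33 in shTGFb and 6.46 to 9.21 in shVEGF. The groups overlapped. The parents Rpl3, Rpl7 and Rps27 and the stalk gene Rplp1 were not among the genes that the rule found, so they were not analysed here.

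Rpl3l was unlike all the other members. It is the counterpart of Rpl3 that striated muscle makes in place of it. It was detected on 35 of 38 arrays, with raw signals of 105 to 10138, and the 3 arrays without a detected signal were those without detected Dcn. Its level was 12.19, 11.08, 11.28, 10.50, 13.15, 9.03 and 11.44 in control. In the B16-WT groups it was 8.55, 11.61, 11.19 and 4.40 at day 4 and 10.95, 4.90, 8.38, 10.24 and 4.64 at day 14. So 3 of 4 and 3 of 5 arrays of these groups measured it, and the values 4.40, 4.90 and 4.64 are background. In shTGFb it was 11.56, 8.69, 10.38, 12.17, 10.31 and 10.46 at day 4 and 9.68, 11.66, 9.22, 11.87 and 6.92 at day 14. In shVEGF it was 11.52, 11.74, 11.91, 13.18 and 7.08 at day 4 and 12.17, 12.11, 8.64, 11.96, 9.79 and 11.30 at day 14. The range within each group was wider than the distance between any 2 group means.

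By group mean, Rpl3l ran from control (11.24 ± 1.30, SD, n = 7) through shVEGF day 4 (11.09 ± 2.33, n = 5), shVEGF day 14 (10.995 ± 1.46, n = 6), shTGFb day 4 (10.59 ± 1.199, n = 6), shTGFb day 14 (9.87 ± 2.02, n = 5) and WT day 4 (8.94 ± 3.31, n = 4) to WT day 14 (7.82 ± 2.94, n = 5). No neighbours in this order differed by more than their SDs. On the remaining arrays the means were 10.45 ± 1.66 (SD, n = 3) at WT day 4 and 9.86 ± 1.33 (n = 3) at WT day 14. The fitted difference of shVEGF day 14 from WT day 14 was 3.17 ± 1.21 (SE, adjusted p = 0.144), and 1.14 without the 3 arrays. For shTGFb day 14 it was 2.05 ± 1.26, and 0.01 without them. The call depended on single WT day 14 arrays: without array 1 or array 4, Rpl3l was called against control (-4.20, adjusted p = 0.0338, and -4.02, adjusted p = 0.0398) and between shVEGF and WT (3.96, adjusted p = 0.0413, and 3.78, adjusted p = 0.0417). In those fits 1210 to 1627 genes were called, and Rpl7l1 was called between shVEGF and WT (-0.90 and -0.96). Dcn was detected on arrays 1 and 4. Without either of them, arrays 2 and 5, which lack it, made up more of the group.

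The level of Rpl3l followed that of skeletal muscle genes. Over the 35 arrays that detected it, its correlation with the mean of Myl1, Acta1, Ckm and Tnnt3, genes of the contractile apparatus and of muscle energy supply, was r = 0.974 (adjusted permutation p = 3e-05) and rho = 0.981 (adjusted p = 6e-05), both from the smallest p that the permutations could give. It was 0.977 without the 2 farthest arrays and 0.981 within groups. The 10 genes most like Rpl3l by Spearman's rho over these arrays were Sypl2 (0.991), Cox6a2 (0.989), Tnni2 (0.989), Neurl1a (0.984), Tcap (0.983), Cmya5 (0.982), Myadml2 (0.981), Tnnt3 (0.980), Myom2 (0.977) and Pde4dip (0.977). Tnni2 and Tnnt3 encode troponins of fast muscle, Cox6a2 a muscle form of a respiratory chain subunit, and Tcap and Myom2 proteins of the sarcomere. In whole tissue, fewer cells of a type and less of its RNA per cell cannot be told apart.

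**Figure D5:**
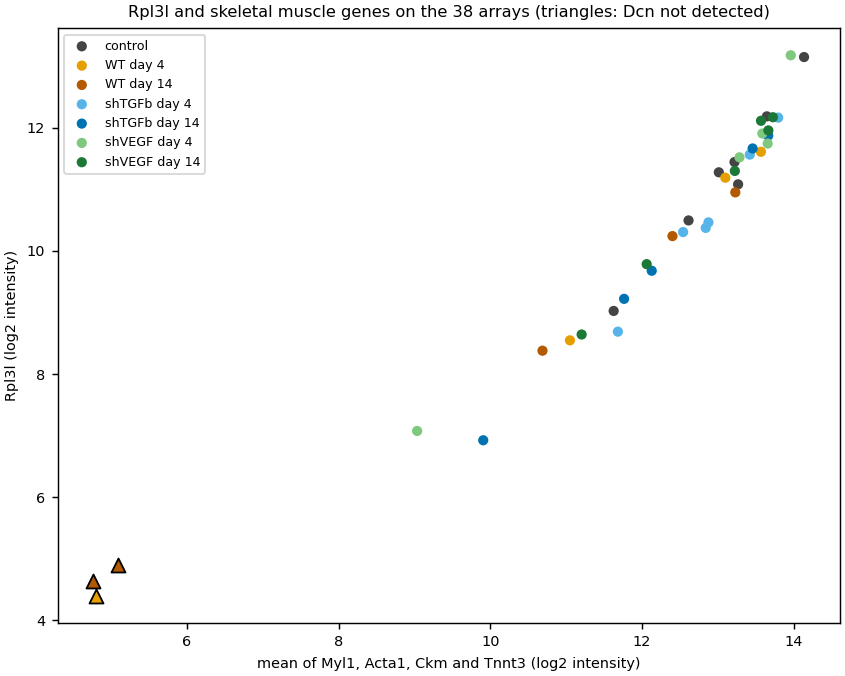
Level of Rpl3l (y axis) against the mean of 4 skeletal muscle genes (x axis), both as log2 intensity, on the 38 arrays, colored by group. Circles are the 35 arrays that detected Rpl3l, along which both rise together (r = 0.974); triangles are the 3 arrays without detected Dcn, at 4.40 to 4.90 for Rpl3l.

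The members were also followed array by array. For each array, the deviation of each of the 16 ribosomal proteins proper from its own mean over the 38 arrays was taken, and the median deviation over the 16, of which 13 were near saturation on at least 1 array. It was 0.32, 0.22 and 0.22 on the 3 arrays without detected Dcn and between -0.19 and 0.16 on the other 35. Over the 5 members never near saturation other than Rpl3l, it was 1.02, 1.08 and 0.83 on the 3 arrays and between -0.51 and 0.26 on the others. Of the 20 members, 16, 14 and 16 were above their own median on the 3 arrays, and 5 to 16 on the others. Single bright members did not follow: Rps9 was at 14.16, 14.14 and 14.19 on the 3 arrays, below all other WT arrays (14.36 to 14.49). Whether the makeup of the tissue, its pigment cells or the probes set these deviations was not tested.

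Other genes of the translation machinery were followed at WT day 14 against control. All 67 mitochondrial ribosomal protein genes, a ribosome of separate proteins encoded in the nucleus, had a positive difference, with a median of 0.43, where 52.2% of all genes were positive, and 4 passed at an unadjusted p under 0.05, where 25% of all genes did. On the remaining arrays 56 of 67 were positive (45% of all genes), with a median of 0.14. All 14 measured ribosome biogenesis genes of 20 listed were positive (median 0.55, 2 passed unadjusted), and 12 without the 3 arrays (median 0.15). Their brightest gene, Nhp2, a core protein of the particles that modify ribosomal RNA, was at 0.42 ± 0.29 (SE). All 8 measured translation factors and other TOP mRNAs of 14 listed were positive (median 0.35, 0 passed), with a median of 0.13 without the 3 arrays. Their brightest, Eif3f, an initiation factor subunit, was at 0.03 ± 0.12. Of 8 measured genes of mTOR and TOP control, 6 were positive (median 0.27, and 7 with 0.18 without the 3 arrays), with Rheb, the activator of mTOR, at 0.27 ± 0.16, and of 3 p53 response genes 2 were (median 0.23, and 1 with -0.10 without them), with Cdkn1a at 0.23 ± 0.32. No gene of these lists was called.

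The same lists in B16-WT at day 4 had medians of 0.25 (65 of 67 positive) for the mitochondrial ribosomal proteins, 0.28 (13 of 14) for biogenesis, 0.09 (6 of 8) for translation factors and other TOP mRNAs, 0.25 (6 of 8) for mTOR and TOP control and -0.0017 (1 of 3) for p53 response, where 54.6% of all genes were positive. Without array 4 they were 0.091 (56 of 67), 0.17 (12 of 14), 0.011 (5 of 8), 0.066 (5 of 8) and 0.082 (2 of 3), with 52.5% of all genes positive. In shVEGF against WT at day 14, the mitochondrial ribosomal proteins had a median of -0.40 with 0 of 67 positive (47.1% of all genes). Without the 3 arrays it was -0.12 with 16 of 67 positive (55.6% of all genes). Over all arrays, 35.7% of the genes detected on every array were positive in this comparison. At WT day 14 the median was 0.25 over the 20 cytosolic members, 0.43 over the 6 of them never near saturation and 0.43 over the mitochondrial genes, and without the 3 arrays 0.079, 0.040 and 0.14. Those 6 include the paralogs Rpl3l and Rpl7l1 and the binding protein Rps19bp1. The difference between the sets was not tested.

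Cell type markers moved along with these differences at WT day 14. Against control, all 6 fibroblast genes (median -3.13), all 4 skeletal muscle genes (-3.93), all 4 keratinocyte genes (-3.54), all 3 adipocyte genes (-2.90), all 5 macrophage genes (-2.88), all 4 T cell genes (-1.12), all 3 endothelial genes (-2.13) and the 1 measured B cell gene (-0.16) had negative differences. All 6 pigment cell genes (0.83), all 3 genes of dividing cells (0.66) and both hair root sheath genes (1.78) had positive ones. With those arrays left out the medians were -0.55 for fibroblasts, -0.91 for muscle, -0.22 for keratinocytes, -0.36 for adipocytes, -0.064 for macrophages, -0.18 for T cells, -0.42 for endothelium, 0.18 for the B cell gene, 0.33 for pigment cells, 0.29 for dividing cells and 3.96 for the hair root sheath. The brightest gene of each list was at -3.95 ± 1.32 (SE) for Dcn, -4.07 ± 1.32 for Myl1, a muscle myosin light chain, -3.61 ± 1.35 for the keratin Krt14, -3.81 ± 1.47 for the fat cell carbonic anhydrase Car3, -3.43 ± 1.15 for lysozyme Lyz1 and -2.13 ± 0.70 for the endothelial adhesion protein Pecam1. Cd8b1 of T cells was at -0.38 ± 0.20 and Cd79b of B cells at -0.16 ± 0.73. Dct, an enzyme of melanin synthesis, was at 0.57 ± 1.21, the centromere histone gene Cenpa at 0.66 ± 0.30, the root sheath keratin Krt27 at 1.58 ± 2.52 and the mitochondrial ribosomal protein gene Mrps24 at 0.25 ± 0.22. Of the markers, 0 genes were called. The part of these cells in the levels of the ribosomal protein genes was not tested.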

How the data were processed

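Total RNA of 38 tissue samples was measured on Illumina bead arrays. The deposited non-normalized table gives an intensity for each of 45272 probes per array, on a linear scale, with a detection p-value beside each. The deposited normalized table holds log2 intensities of 16247 probes. Tested on the files, they equal the log2 of quantile-normalized signals over all probes without background correction (largest difference 5e-14). BeadStudio and limma are named in the submitters' processing notes, and their versions are not given in the sources used here. No column lacked a sample. The deposited headers name no chip or scan, so batches could not be examined. Depth has no meaning for arrays: their number limits the precision.

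Signals were background-corrected with limma 3.58.1 (normexp by detection p-values, offset 16), quantile-normalized over all probes and taken as log2 (R 4.3.3). The platform annotation gave 1 symbol to 14836 probes of the normalized table, several to 5 and none to 1406. Named probes detected on at least 4 arrays were kept, and the filter removed 0. The brightest probe stood for each of 9890 genes. A linear model with 7 group means over all arrays gave an F test and 15 comparisons, with moderated variances and Benjamini-Hochberg adjustment across the 9890 genes, and "called" means an adjusted p under 0.05. Correlations over arrays had two-sided permutation p-values from 1e+05 draws. Groups came from the sample titles, and array numbers are theirs.

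On simulated data for WT day 14 against control over 9890 genes, 84 of 100 genes changed by 2 log2 units were called. Of 100 genes changed by 4, 100 were called, with 13 false calls at either size. Smaller differences, such as those of the members other than Rpl3l, were not tested in this way. On the measured arrays, Dcn at -3.95 and Myl1 at -4.07 were not called in this comparison.

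The members, the companion lists (translation factors and other TOP mRNAs, ribosome biogenesis, mTOR and TOP control, p53 response, mitochondrial ribosomal proteins), the marker lists (pigment cells, fibroblasts, skeletal muscle, keratinocytes, hair root sheath, adipocytes, macrophages, T cells, B cells, endothelium, dividing cells) and the rule for named genes were chosen with earlier results of these data known. Of 4 further ribosomal proteins listed, 0 were measured. The rule named members of fixed role, the paralogs, the 3 largest differences in each direction per comparison, the 5 widest and 5 narrowest ranges, and the brightest gene of each companion list. Rpl4, Rps10 and the values of the arrays without detected Dcn were described after they were seen. Alternatives were the deposited table, median centring, an offset of 50, probes detected on all arrays, the mean over probes, array weights, a replicate block, members never near saturation and leaving out each array, and the removal of the 3 arrays without Dcn, which was chosen after seeing the data.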

Additional observations from a re-analysis of the deposited data

Results flagged for a closer look

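Single arrays of a group were compared with the rest of their group by Dixon's gap ratio, for the 20 genes and for the median deviation of the ribosomal proteins proper in each of the 7 groups. Of these 147 comparisons 11 stood apart, all of single genes. Chance alone sets apart about 1 in 20 groups. In B16-WT both cases came from day 4 array 4, on which Dcn was not detected: it stood above its group for Rpl4 (11.83, the nearest other at 10.65) and below it for Rps9 (14.16, the nearest other at 14.45). On shVEGF day 4 array 5, 3 genes were lowest of their group: Rpl3l at 7.08 (nearest 11.52), Rpl7l1 at 8.15 (nearest 9.82) and Rps29 at 14.14 (nearest 14.47). That array also had only 17291 detected probes.

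The other values that stood apart were Rpl27 on control array 6 (14.45), Rpl4 on shTGFb day 14 array 5 (9.87), Rplp2 on shVEGF day 14 array 2 (13.83) and Rps3a1 on shTGFb day 4 array 4 (9.06). Rps27l was low on shTGFb day 4 array 2 (12.78) and high on shTGFb day 14 array 3 (14.44). No member moved in opposite directions in every array of 2 groups.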

How the results depend on the processing

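No member was called by the F test or in any of the 15 comparisons under the 8 alternatives that refit the model with all members or, where detection on all arrays was asked for, without Rpl3l. Leaving out arrays gave 0 to 1 called members at WT day 14 against control and 0 to 2 for shVEGF against WT at day 14. The calls appeared without WT day 14 array 1 or 4, both with detected Dcn. In those fits 1436 and 1271 genes were called in the first comparison and 1210 and 1627 in the second. With array weights 778 genes were called for shTGFb day 4 against control, 102 for shTGFb day 14 against day 4 and 855 for shTGFb against WT at day 4, none of them members. Median centring gave median member differences from control of 0.36 (WT day 4), 0.64 (WT day 14), 0.22 (shTGFb day 14) and 0.24 (shVEGF day 4). Between days it gave 0.32 (WT), 0.15 (shTGFb) and -0.13 (shVEGF), against WT -0.24 (shTGFb day 4), -0.43 (shTGFb day 14) and -0.52 (shVEGF day 14), and for the change over days against WT -0.17 (shTGFb) and -0.44 (shVEGF). Array weights gave 0.10 (WT day 14 against control), 0.013 (shTGFb against WT, day 4) and -0.047 (shVEGF against WT, day 4). Members never near saturation gave 0.43 (WT day 14) and -0.13 (shTGFb day 14) against control and -0.24, -0.48 and -0.32 against WT (shTGFb day 4, shTGFb day 14, shVEGF day 14). Without the 3 arrays lacking Dcn the medians were 0.079 (WT day 14 against control) and -0.061 (shVEGF against WT, day 14). The cause was not tested. Rpl3l turned sign with array weights to 0.25 (shVEGF day 4 against control) and 0.22 (day 14), and ran from -0.68 to 0.85 and from -0.61 to 0.23 when an array was left out. The deviations of same-numbered arrays of different groups had a median correlation of 0.0806 over 102 pairs (-0.807 to 0.75). It was -0.0284 over pairs with different numbers. For 4 of 38 arrays the closest array of another group bore the same number. Whether the numbers pair samples cannot be told from these values. With the replicate block 0 members were called and 46 of 46 results were kept. A median counted as kept if it moved by less than 0.109, the SD within groups of the arrays' median member deviation. A small median could thus change sign and count as kept. That of shVEGF day 14 against day 4 went from -0.0023 to 0.0079. A chip as block was not run because the headers name none. Signals near the top of the range may limit what the 14 bright members can show, which was not tested. Of these, Rpl26 and Rps10 were near saturation on only 2 and 3 of 38 arrays.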
